A study of Mus musculus with 9 samples.

Results

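Collagens are secreted proteins whose chains wind into a triple helix and then join into fibrils, nets or filaments of the extracellular matrix. The count table held 42 genes named for a collagen chain (Col, a type number, a, a chain number), among 24186 genes, and each of these names belonged to a single gene identifier. Grouped by the structures that their products form, 11 were fibrillar, 9 belonged to the FACIT group (fibril-associated collagens with interrupted triple helices), 6 to basement membrane networks, 5 to beaded filaments, 4 to transmembrane collagens, 3 to short-chain networks and 2 to multiplexins, with 1 for anchoring fibrils (Col7a1) and 1 of another kind (Col28a1). Fibrillar collagens carry the tension in connective tissue, and type I collagen is the main protein of bone matrix. FACIT collagens sit on the surface of fibrils, type IV collagen makes the sheet of basement membranes, and type VI collagen makes the fine filaments around cells. In the bone marrow, stromal progenitors lay down this matrix as they give rise to bone and fat cells. Interferon γ (IFNγ), a cytokine of T cells and natural killer cells, is known to lower the transcription of type I collagen genes in cultured human fibroblasts.

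RNA was sequenced from mouse bone marrow stromal cells in 3 groups of 3 libraries, each numbered 4, 5 and 6: adipogenic progenitors given 10 ng/ml IFNγ for 3 days, osteogenic progenitors, and untreated adipogenic progenitors. Each group came from the leg bones of adult C57Bl/6 mice carrying the irtTA-GBD*-TAg transgene, whose large T antigen is switched on by dexamethasone and doxycycline. The cells had been cloned and grown with both drugs, and were kept for 3 days without them before RNA was taken. Libraries of a group are called biological replicates in the study's design text, with no word on clones, cultures or animals. The p-values below thus measure the spread between these libraries or, in the IFNγ comparison, the spread left once libraries are paired by number. Values of a group are given for libraries 4, 5 and 6 in that order, and each IFNγ-treated library was paired with the untreated one that bears its number.

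The libraries held 27440089 to 39251602 counts. Levels are given in CPM, the usual counts-per-million scale, which here divides a gene's counts by the library's total times its TMM scaling factor. A gene with 0 counts could still lie at up to 0.0764 to 0.109 CPM (3 counts of the unscaled total), a limit that covers counting error only. The 7 osteoblast markers summed to 53.6 to 77.9 CPM in IFNγ-treated, 450 to 783 CPM in osteogenic and 68.4 to 97.7 CPM in untreated adipogenic libraries. Of these, 4 rose in osteogenic against untreated cells (Sp7, Alpl, Ibsp and Runx2; 1.98% of all genes rose) and all 7 were lower in IFNγ-treated than in osteogenic cells (7.52% of all genes were); their part in the results below was not tested. Adipoq, Plin1 and Cidec, which mark mature fat cells, did not pass 0.2 CPM in any library, while the fat cell genes Lpl, Fabp4 and Pparg reached 291, 234 and 60.5 CPM in untreated library 6. Lpl fell in osteogenic against untreated cells (-5.54 ± 1.24, adjusted p = 0.0435) and was higher in IFNγ-treated than in osteogenic cells (4.23 ± 1.17, 0.0431). The cartilage genes Acan, Matn1 and Hapln1 did not pass 0.602 CPM, while Sox9 was at 12.8 to 56.7 CPM. The endothelial genes Pecam1 and Cdh5 did not pass 0.171 CPM, Emcn had no counts although Kdr reached 53.9 CPM in a treated library, and the blood cell gene Ptprc did not pass 0.1 CPM, with the macrophage gene Cd68 at 3.47 to 18.6 CPM. Of the 9 marrow stroma markers, Cxcl12 was present at 268 to 3536 CPM and Nt5e at 0.674 to 5.31 CPM. Lepr did not pass 0.427 CPM, nor Thy1 0.0295 CPM. With IFNγ, 2 of the 8 tested fell, Cxcl12 (-2.46 ± 0.39, adjusted p = 0.0138) and Pdgfrb (-0.67 ± 0.13, 0.0236). Ly6a rose (3.86 ± 0.36, 0.00253), where 4.27% of all genes fell and 6.53% rose. The part of these markers in the results below was not tested. In whole cultures, fewer cells of a type and less RNA per cell cannot be told apart.

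The coding sequences show what makes a fibrillar collagen, since a glycine codon opens each codon triplet of the triple helix. In the longest coding sequence of each gene (GENCODE M21), the 11 fibrillar genes had unbroken runs of 216 to 344 such triplets, with a median of 338. No gene of another class passed 113. FACIT genes had 32 to 113 in their longest run, and basement membrane genes 39 to 66, split over 22 to 27 runs of at least 6. Stretches of 36 codons are shown for the type I chain Col1a1 (chromosome 11), the type III chain Col3a1 (chromosome 1), the FACIT chain Col12a1 (chromosome 9) and the type IV chain Col4a1 (chromosome 8), chosen because the first 3 moved with IFNγ and the fourth did not pass the test. Capitals mark the glycine codons in register, and the last 2 stretches hold the end of a run:
Col1a1: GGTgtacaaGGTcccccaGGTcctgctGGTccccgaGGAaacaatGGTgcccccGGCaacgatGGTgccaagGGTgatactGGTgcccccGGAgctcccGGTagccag
Col3a1: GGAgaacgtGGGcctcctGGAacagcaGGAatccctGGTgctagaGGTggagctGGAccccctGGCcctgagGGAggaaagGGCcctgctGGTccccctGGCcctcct
Col12a1: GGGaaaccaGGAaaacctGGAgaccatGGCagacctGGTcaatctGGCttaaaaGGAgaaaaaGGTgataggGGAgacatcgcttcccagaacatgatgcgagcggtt
Col4a1: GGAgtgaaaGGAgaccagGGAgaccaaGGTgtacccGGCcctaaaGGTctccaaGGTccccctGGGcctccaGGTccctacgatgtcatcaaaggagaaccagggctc

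Collagen genes took the smallest share of the RNA in IFNγ-treated cells and the largest in osteogenic cells. They made up 1.16%, 1.39% and 1.78% of all counts in IFNγ-treated libraries, 7.31%, 7.14% and 9.71% in osteogenic libraries and 3.24%, 2.80% and 2.58% in untreated adipogenic libraries, and the groups did not overlap. Fibrillar genes were the largest class in each library, at 0.798%, 1.04% and 0.886% of counts in IFNγ-treated, 6.32%, 6.28% and 8.02% in osteogenic and 2.46%, 2.20% and 1.36% in untreated libraries. Col1a1 and Col1a2 alone do not account for the order: the other 40 genes held 0.574%, 0.685% and 1.17% of counts in IFNγ-treated, 2.32%, 1.98% and 3.22% in osteogenic and 1.43%, 1.22% and 1.63% in untreated libraries. Most FACIT counts of osteogenic libraries came from Col12a1, which held 4.2%, 5.2% and 7.1% of collagen counts, against 4.6%, 5.5% and 7.4% for the class. These shares were 5.0%, 2.3% and 4.6% against 5.6%, 3.7% and 5.5% in untreated libraries. They were 1.8%, 1.2% and 1.2% against 3.0%, 2.8% and 2.5% in IFNγ-treated libraries. With Col12a1 in the sum, FACIT genes followed the same order of groups, at 0.0352% to 0.0445%, 0.337% to 0.718% and 0.103% to 0.180% (the sum without it was not computed). Basement membrane genes did not: they took 0.145% to 0.342% in IFNγ-treated, 0.144% to 0.301% in osteogenic and 0.234% to 0.418% in untreated libraries, and these ranges overlapped, though the treated library had the lower share in each pair.

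**Figure D1:**
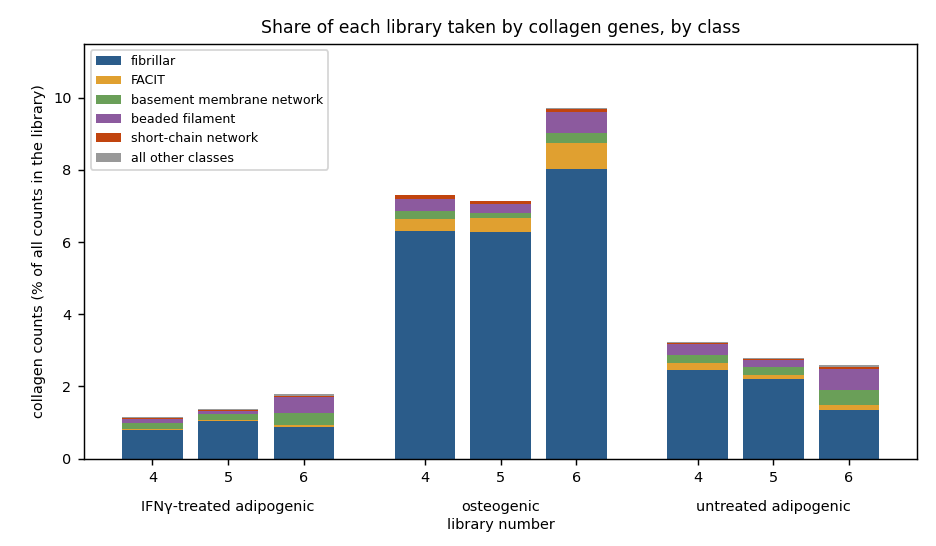
Stacked bars give, for each of the 9 libraries, the percent of all counts taken by collagen genes, coloured by class. The 3 osteogenic bars reach 7.14% to 9.71%, the IFNγ-treated bars 1.16% to 1.78%, and the fibrillar part is the largest in each.

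Of the 42 genes, 36 passed the filter on low counts and were tested, and 25 averaged 10 CPM or more in at least 1 group. A gene is said below to have risen or fallen where the adjusted p from edgeR's quasi-likelihood test, over all 15098 genes tested, was under 0.05. With libraries paired by number, 7 collagen genes fell in IFNγ-treated against untreated adipogenic cells and 0 rose. This is 19.4% of those tested, against 4.27% of all genes that fell and 6.53% that rose. The median log2 fold change of the 36 was -0.84, against -0.02 over all genes, and 31 had a negative fold change. Within the pairs, 25 were lower in the treated library of each number (29.7% of all genes were), 3 were higher in each (26.9% of all genes) and 8 were mixed. Libraries of the treated and untreated groups did not overlap for 7 genes, lower in each case (7.17% of all genes, with another 10.2% higher).

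Osteogenic against untreated adipogenic cells, 4 collagen genes rose (1.98% of all genes did) and 2 fell (3.19% of all genes, or 5.17% in either direction), with a median log2 fold change of -0.22 against -0.02 over all genes. Libraries did not overlap for 12 collagen genes that were higher in osteogenic cells (15% of all genes) and for 4 that were lower (15.9%). In IFNγ-treated adipogenic against osteogenic cells, 1 rose (9.2% of all genes did) and 10 fell (7.52% of all genes, or 16.7% in either direction). Libraries did not overlap for 6 genes that were higher in treated cells (19.7% of all genes) and for 14 that were lower (18.8%). Scaled by library totals alone, 3 rose and 9 fell in this comparison, with 11.2% of all genes rising and 5.98% falling. These 3 comparisons share libraries, so their values are set side by side and no overlap between them is given.

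The IFNγ calls rest on the pairing. Without it, 1 of the 7 remained (Col12a1, adjusted p = 0.0253), the others having adjusted p up to 0.603, and over all genes 0.245% fell and 2.01% rose. Unpaired, the fold changes of the 7 were between -2.60 and -0.87 on the log2 scale. With both libraries of number 4, 5 or 6 left out, 2, 2 and 1 collagen genes were called: Col7a1 and Col15a1 fell without number 4, Col3a1 and Col27a1 without number 5, and Col28a1 rose without number 6. Calls over all genes dropped too: 0.643%, 0.749% and 0.424% fell in these fits, and 2.41%, 2.2% and 1.83% rose. None of the 7 kept its call in all 3 of these smaller fits.

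**Figure D2:**
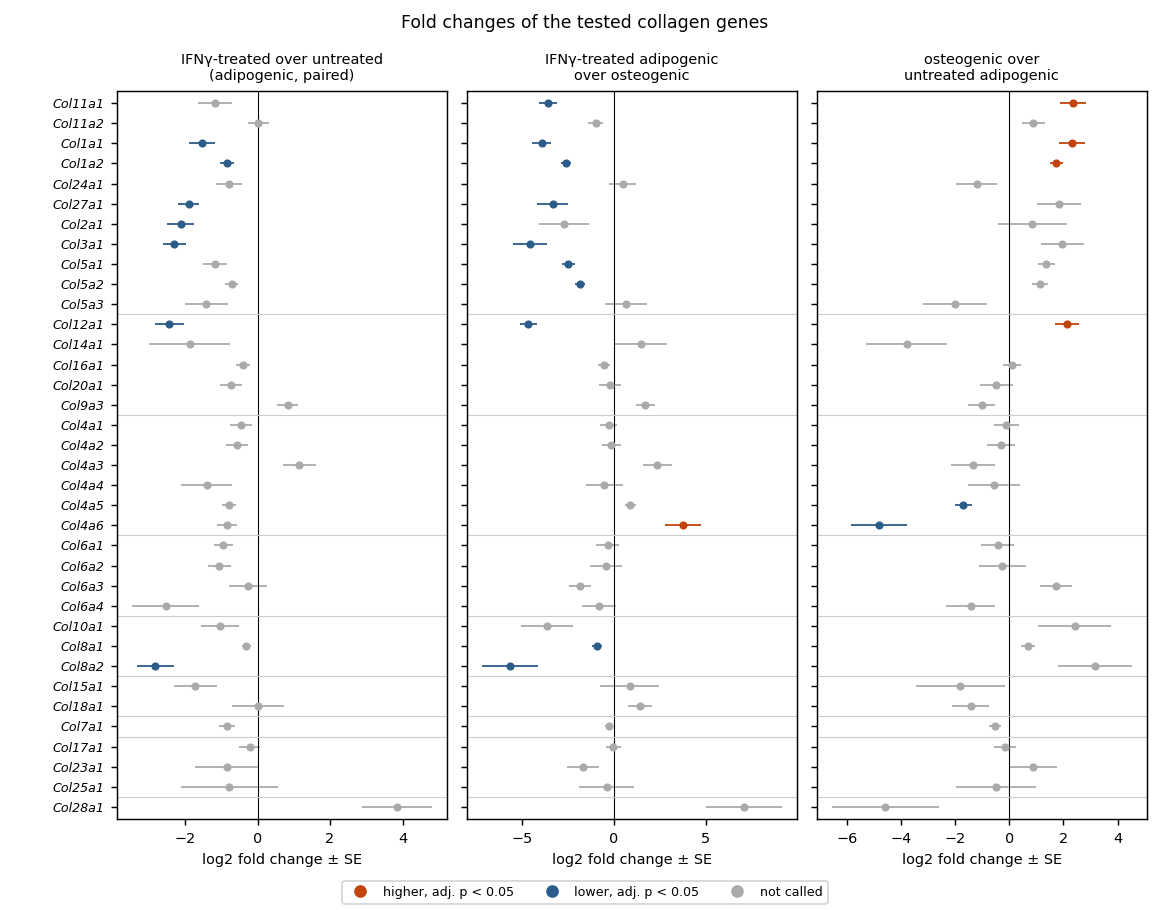
Points give the log2 fold change of each of the 36 tested collagen genes with its standard error, in 3 panels: IFNγ-treated over untreated (paired), IFNγ-treated over osteogenic, and osteogenic over untreated. Grey lines separate the classes; red and blue mark adjusted p under 0.05, which 7, 11 and 6 genes passed.

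Type I collagen fell with IFNγ and was most abundant in osteogenic cells. Col1a1 (ENSMUSG00000001506), the main chain of type I collagen, had 1493, 3358 and 1932 CPM in IFNγ-treated, 30720, 28860 and 43540 CPM in osteogenic and 8398, 9203 and 3087 CPM in untreated libraries. The treated library was the lower of each pair, but treated library 5 lay above untreated library 6. Its log2 fold change was -1.54 ± 0.36 (SE, adjusted p = 0.0431) for IFNγ-treated over untreated, 2.32 ± 0.48 (0.0349) for osteogenic over untreated and -3.93 ± 0.51 (0.00226) for IFNγ-treated over osteogenic. Its partner chain Col1a2 (ENSMUSG00000029661) had 4198, 3489 and 4132 CPM in IFNγ-treated, 19430, 24450 and 28350 CPM in osteogenic and 9234, 6412 and 5976 CPM in untreated libraries, with no overlap between any of the groups. Its log2 fold changes were -0.85 ± 0.19 (adjusted p = 0.0396), 1.74 ± 0.25 (0.0111) and -2.61 ± 0.26 (5.19e-04). The osteogenic call of Col1a2 held with each of the 6 libraries left out in turn, with adjusted p of at most 0.0462, and that of Col1a1 in none of these fits, with adjusted p of 0.0579 to 0.105. The IFNγ call of Col1a1 was also lost with DESeq2, with only the 6 adipogenic libraries in the fit, and with osteogenic library 4 or 5 left out. That of Col1a2 was lost with osteogenic library 5 left out.

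Col3a1, Col5a1 and Col5a2 had the same order of group means as the type I chains. Col3a1 (ENSMUSG00000026043), the chain of type III collagen of soft tissue, had 188, 64.8 and 52.2 CPM in IFNγ-treated, 1713, 2091 and 3368 CPM in osteogenic and 1388, 241 and 220 CPM in untreated libraries. It fell with IFNγ, by a log2 fold change of -2.29 ± 0.31 (adjusted p = 0.00883), and was lower in treated than in osteogenic cells, at -4.56 ± 0.91 (0.0133). With a pair left out, the adjusted p of the IFNγ difference was 0.0415 to 0.0594. Both number 4 libraries of the adipogenic cells were higher than the other libraries of their group, and osteogenic over untreated gave 1.96 ± 0.81 (adjusted p = 0.194). Type V collagen starts and sizes type I fibrils. Its chain Col5a1 had 497, 996 and 968 CPM in IFNγ-treated, 4245, 3380 and 6109 CPM in osteogenic and 1963, 1938 and 1416 CPM in untreated libraries. Col5a2 had 1234, 2101 and 1667 CPM in IFNγ-treated, 6343, 5460 and 6261 CPM in osteogenic and 2694, 3606 and 1956 CPM in untreated libraries. For these chains the IFNγ difference did not pass the test, at -1.16 ± 0.33 for Col5a1 (adjusted p = 0.0743) and -0.71 ± 0.18 for Col5a2 (0.056). It was called for Col5a2 with upper-quartile scaling, library totals, DESeq2 and limma-voom, and for Col5a1 with DESeq2. Osteogenic over untreated gave 1.37 ± 0.33 (0.0528) and 1.13 ± 0.28 (0.0554), which were called with DESeq2 and with upper-quartile scaling. Both genes were lower in IFNγ-treated than in osteogenic cells, at -2.48 ± 0.34 (0.00283) and -1.85 ± 0.28 (0.0042).

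Among the fibrillar chains best known from cartilage, Col2a1 and Col27a1 fell with IFNγ and Col11a1 rose in osteogenic cells. Col2a1 had 1.71, 53.6 and 6.90 CPM in IFNγ-treated, 211, 122 and 81.2 CPM in osteogenic and 10.8, 194 and 27.4 CPM in untreated libraries. The treated library was lower in each pair while the pairs themselves differed widely, with number 5 the highest in both adipogenic groups. The paired log2 fold change was -2.12 ± 0.37 (adjusted p = 0.0197), and without the pairing adjusted p was 0.603. With a pair left out it was 0.0844 to 0.108, and the unpaired fold change turned to 0.12 without untreated library 5. Col27a1 had 2.54, 25.2 and 5.45 CPM in IFNγ-treated, 130, 121 and 84.9 CPM in osteogenic and 15.3, 56.9 and 22.2 CPM in untreated libraries. It too was highest in number 5 of both adipogenic groups, and fell by a paired log2 fold change of -1.89 ± 0.29 (adjusted p = 0.0134, 0.472 without the pairing and 0.0171 to 0.0929 with a pair left out) and by -3.34 ± 0.86 (0.034) against osteogenic cells. The second call was lost with no filter and in 5 of the 6 leave-outs, where its adjusted p reached 0.11. Col11a1, which co-assembles into thin fibrils, had 52.3, 58.9 and 47.9 CPM in IFNγ-treated, 702, 252 and 948 CPM in osteogenic and 166, 135 and 74.6 CPM in untreated libraries. No groups overlapped. Osteogenic over untreated gave 2.34 ± 0.48 (adjusted p = 0.034), IFNγ-treated over osteogenic -3.58 ± 0.50 (0.00308), and IFNγ-treated over untreated -1.17 ± 0.47 (0.169). With 1 library left out, the osteogenic rise of Col11a1 was called in 1 of 6 fits. Its IFNγ difference was called with DESeq2 (adjusted p = 0.0241), with only the 6 adipogenic libraries (0.0253) and with osteogenic library 5 left out (0.0317). The sums of the cartilage marker list were 21.5 to 58.02 CPM in IFNγ-treated, 19.8 to 32.1 CPM in osteogenic and 13.9 to 25 CPM in untreated libraries, and their part in these results was not tested. Most of that sum was Sox9, which rose with IFNγ (1.00 ± 0.20, adjusted p = 0.0266), whereas the low cartilage genes Comp and Matn3 were lower in IFNγ-treated than in osteogenic cells (-2.21 ± 0.49, 0.0192, and -2.83 ± 0.70, 0.029).

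The remaining fibrillar genes did not pass a test in the full fit. Col5a3 had 71.2, 3.95 and 43.9 CPM in IFNγ-treated, 10.9, 13.3 and 50.7 CPM in osteogenic and 196, 13.3 and 92.8 CPM in untreated libraries, lower in the treated library of each pair. Col11a2 stayed between 3.32 and 16.2 CPM in all 9 libraries. Col24a1 lay under 2.2 CPM.

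**Figure D3:**
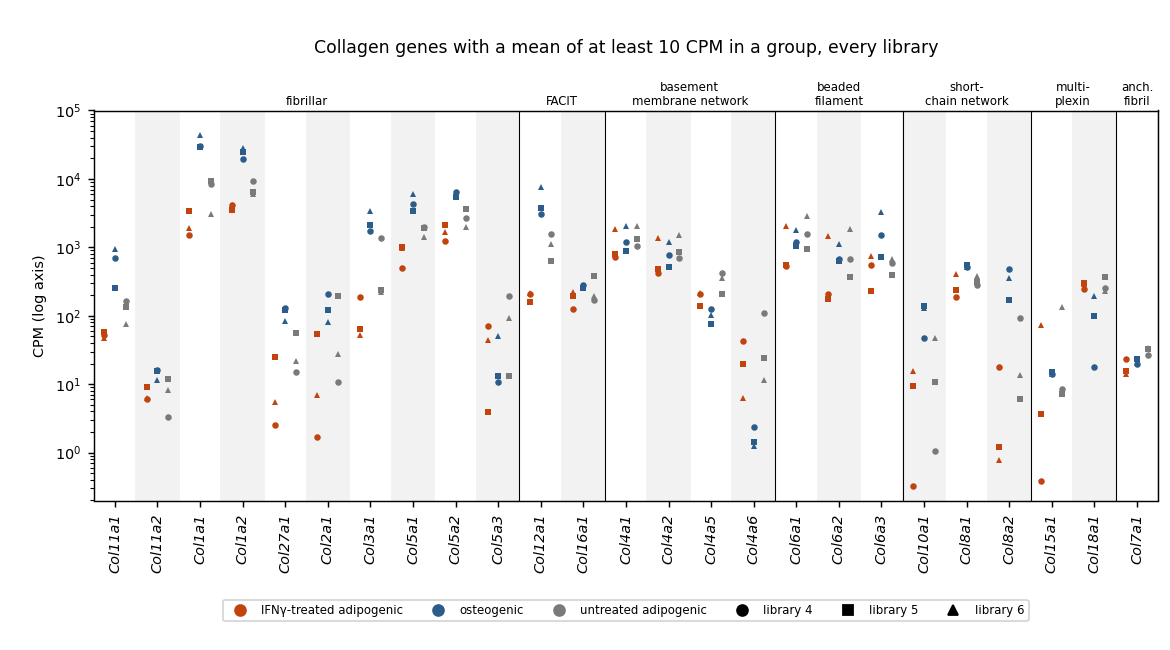
Each point is 1 library's level in CPM on a log axis, for the 25 collagen genes that averaged 10 CPM or more in at least 1 group; colour gives the group and shape the library number. Osteogenic points stand above both adipogenic groups for Col1a1, Col1a2 and Col12a1, and below both for Col4a5, Col4a6 and Col18a1.

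Col12a1 (ENSMUSG00000032332), a FACIT chain that coats type I fibrils, was the collagen gene called in all 3 comparisons beside Col1a1 and Col1a2. It had 207, 160 and 215 CPM in IFNγ-treated, 3106, 3821 and 7687 CPM in osteogenic and 1574, 624 and 1137 CPM in untreated libraries. The groups stood apart, and the 3 treated libraries lay close together. Its log2 fold changes were -2.43 ± 0.39 (adjusted p = 0.0139) for IFNγ-treated over untreated, 2.13 ± 0.43 (0.0338) for osteogenic over untreated and -4.65 ± 0.48 (7.13e-04) for IFNγ-treated over osteogenic, a 25.1-fold difference. Leaving out pairs gave IFNγ values of -2.67 to -2.17, with adjusted p of 0.0564 to 0.0874, and the osteogenic rise was called in 1 of the 6 fits with a library left out. Col16a1, a FACIT chain of small fibrils, had 125, 198 and 220 CPM in IFNγ-treated, 280, 255 and 263 CPM in osteogenic and 168, 383 and 195 CPM in untreated libraries. Its groups of adipogenic libraries overlapped, and no comparison passed the test. Of the other FACIT genes, Col9a3 was listed at 2.23 to 13.7 CPM and higher in the treated library of each pair, at 0.83 ± 0.28 (adjusted p = 0.116), Col20a1 at 1.16 to 6.62 CPM and Col14a1 at 0.0376 to 6.39 CPM. Col9a1, Col9a2, Col19a1 and Col22a1 had too few counts to be tested.

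Of the basement membrane network genes, the main chains Col4a1 and Col4a2 passed no test, and the X-linked pair was low in osteogenic cells. Col4a1 had 728, 813 and 1846 CPM in IFNγ-treated, 1208, 892 and 2021 CPM in osteogenic and 1042, 1335 and 2067 CPM in untreated libraries. Col4a2 had 428, 488 and 1359 CPM in IFNγ-treated, 784, 513 and 1207 CPM in osteogenic and 710, 848 and 1540 CPM in untreated libraries. Library 6 was the highest of each group for both genes, and the treated library was the lower of each pair, while the groups overlapped. The log2 fold changes for IFNγ-treated over untreated were -0.46 ± 0.30 for Col4a1 (adjusted p = 0.373) and -0.57 ± 0.31 for Col4a2 (0.294). For osteogenic over untreated they were -0.11 ± 0.45 (0.912) and -0.31 ± 0.53 (0.773), and for IFNγ-treated over osteogenic -0.28 ± 0.45 (0.716) and -0.14 ± 0.52 (0.887). Against untreated and treated adipogenic cells alike, the signs of the osteogenic differences turned in some fits with 1 library left out.

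Col4a5 and Col4a6 pair in the basement membranes of smooth muscle and epithelium. Col4a5 had 205, 141 and 213 CPM in IFNγ-treated, 125, 74.9 and 104 CPM in osteogenic and 421, 210 and 354 CPM in untreated libraries. It was lower in osteogenic than in untreated cells, at -1.70 ± 0.30 (adjusted p = 0.0226), while IFNγ-treated over untreated gave -0.78 ± 0.19 (0.0507). Col4a6 had 42.6, 19.9 and 6.24 CPM in IFNγ-treated, 2.39, 1.43 and 1.24 CPM in osteogenic and 110, 23.8 and 11.7 CPM in untreated libraries. Each osteogenic library was below each adipogenic library. It fell by -4.84 ± 1.04 in osteogenic against untreated cells (adjusted p = 0.0394) and rose by 3.76 ± 1.00 in IFNγ-treated against osteogenic cells (0.0367). Each of these 3 calls was made in 1 of the 6 fits with a library left out. In other settings, the IFNγ difference of Col4a5 was called with RLE or upper-quartile scaling, DESeq2 and only the 6 adipogenic libraries. It was also called with a replicate block of numbers over all 9 libraries and with osteogenic library 4 or 5 left out. That of Col4a6 was called with DESeq2 and limma-voom. Epithelial markers (Epcam, Cdh1, Krt5 and Krt18) summed to 0.338 to 3.43 CPM in IFNγ-treated, 2.57 to 5.42 CPM in osteogenic and 0.549 to 2.20 CPM in untreated libraries, and their part was not tested. Col4a3 and Col4a4, the chains known from the kidney filter, did not pass 1.73 CPM.

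Type VI collagen, the beaded filament that surrounds cells, was uneven between libraries and passed no test in the full fit. Col6a1 had 532, 546 and 2079 CPM in IFNγ-treated, 1192, 1033 and 1768 CPM in osteogenic and 1573, 934 and 2921 CPM in untreated libraries. Col6a2 had 209, 178 and 1445 CPM in IFNγ-treated, 676, 624 and 1136 CPM in osteogenic and 683, 375 and 1877 CPM in untreated libraries. In both adipogenic groups library 6 was the highest, and the treated library was the lower of each pair. IFNγ-treated over untreated gave -0.94 ± 0.27 for Col6a1 (adjusted p = 0.0785) and -1.05 ± 0.32 for Col6a2 (0.0894), osteogenic over untreated gave -0.44 ± 0.61 (0.71) and -0.27 ± 0.87 (0.887), and IFNγ-treated over osteogenic -0.34 ± 0.61 (0.748) and -0.41 ± 0.87 (0.791). Col6a3, the long chain of the filament, had 548, 231 and 738 CPM in IFNγ-treated, 1508, 724 and 3304 CPM in osteogenic and 587, 400 and 685 CPM in untreated libraries. Here the pairs did not agree in direction, at -0.26 ± 0.52 (adjusted p = 0.80), and each osteogenic library lay above each untreated one, at 1.73 ± 0.59 (0.132). Against osteogenic cells the treated cells had -1.87 ± 0.60 (0.068). Col6a4 stayed under 6.84 CPM, and Col6a6 had no counts in any library. In other settings, the IFNγ difference was called for Col6a1 and Col6a4 with DESeq2 and with only the 6 adipogenic libraries. That of Col6a2 was called with DESeq2, and those of Col6a1 and Col6a2 also with osteogenic library 6 left out. Both differences of Col6a3 from osteogenic cells were called with DESeq2 and with a replicate block of numbers over all 9 libraries.

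In the short-chain networks, Col8a2 fell with IFNγ. Type VIII collagen forms hexagonal lattices under endothelium and in the cornea. Col8a2 (chromosome 4) had 17.9, 1.21 and 0.795 CPM in IFNγ-treated, 477, 170 and 355 CPM in osteogenic and 92.5, 6.09 and 13.6 CPM in untreated libraries. Library 4 was far above 5 and 6 in both adipogenic groups, and in each pair the treated library was the lower. The paired log2 fold change was -2.82 ± 0.51 (adjusted p = 0.0208, 0.472 without the pairing and 0.0779 to 0.0923 with a pair left out), and IFNγ-treated over osteogenic gave -5.65 ± 1.54 (0.04), a call lost with no filter and in 5 of the 6 leave-outs, where adjusted p reached 0.0978. Osteogenic over untreated gave 3.16 ± 1.36 (0.209), although no osteogenic library was as low as an untreated one. Col8a1, its partner, had 189, 238 and 403 CPM in IFNγ-treated, 514, 544 and 522 CPM in osteogenic and 283, 316 and 388 CPM in untreated libraries. It was lower in IFNγ-treated than in osteogenic cells by -0.93 ± 0.27 (adjusted p = 0.0496), a call lost with RLE size factors, library totals, no filter, only the 6 libraries compared and 5 of the 6 leave-outs. Col10a1, which marks hypertrophic cartilage, had 0.325, 9.56 and 15.4 CPM in IFNγ-treated, 48.1, 138 and 130 CPM in osteogenic and 1.07, 10.8 and 47.3 CPM in untreated libraries, and no comparison passed the test.

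The multiplexins, whose cleaved ends include endostatin, and the anchoring fibril chain also passed no test in the full fit. Col18a1, the parent of endostatin, had 244, 297 and 292 CPM in IFNγ-treated, 17.8, 99.6 and 192 CPM in osteogenic and 251, 363 and 228 CPM in untreated libraries. All osteogenic libraries were below the adipogenic ones, at -1.44 ± 0.67 against untreated cells (adjusted p = 0.236). The IFNγ difference was 0.01 ± 0.71, an SE that also draws on the osteogenic libraries, and -0.007 ± 0.146 with only the 6 adipogenic libraries. Col15a1 had 0.384, 3.69 and 73.2 CPM in IFNγ-treated, 14.2, 14.9 and 13.9 CPM in osteogenic and 8.59, 7.17 and 137 CPM in untreated libraries. Library 6 held most of its counts in both adipogenic groups, and the paired difference was -1.72 ± 0.59 (0.117). Col7a1, which ties skin epithelium to the dermis, had 23.1, 15.8 and 14.1 CPM in IFNγ-treated, 19.5, 23.8 and 20.7 CPM in osteogenic and 26.4, 32.7 and 33.9 CPM in untreated libraries. Both other groups lay below the untreated libraries, with -0.84 ± 0.21 for IFNγ (adjusted p = 0.052) and -0.54 ± 0.21 for osteogenic cells (0.164). The IFNγ difference of Col7a1 was called with RLE or upper-quartile scaling, scaling without the collagen genes, no filter, DESeq2 and limma-voom.

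**Figure D4:**
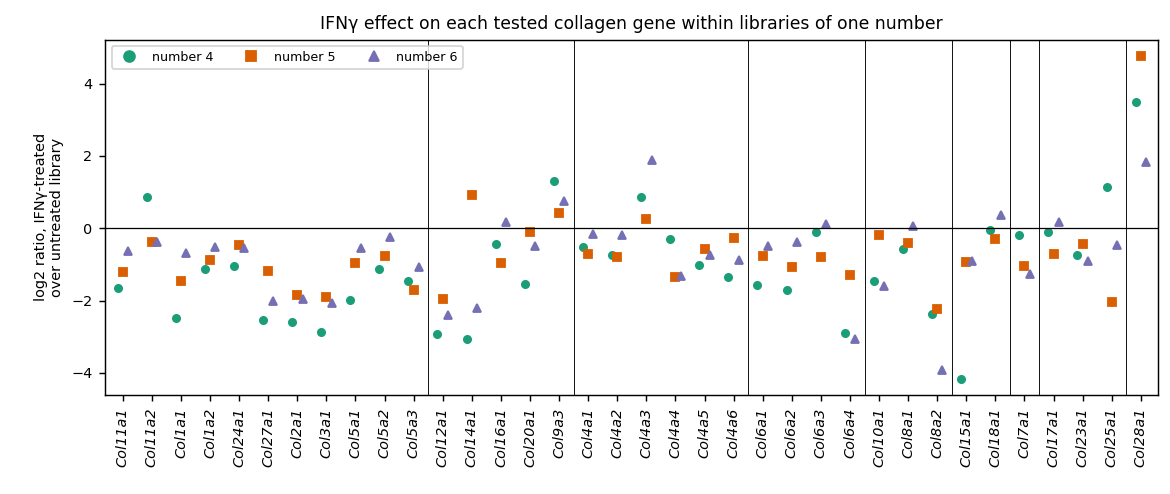
For each of the 36 tested collagen genes, points give the log2 ratio of the IFNγ-treated over the untreated adipogenic library of the same number, computed from CPM with 0.1 added. All 3 points lie below 0 for 25 genes and above 0 for 3 (Col9a3, Col4a3 and Col28a1).

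Col28a1 (ENSMUSG00000068794) went the other way from most of the class. Type XXVIII collagen is a small-filament chain known from peripheral nerve in the mouse. It had 35, 148 and 313 counts in IFNγ-treated, 0, 1 and 2 in osteogenic and 0, 2 and 98 in untreated libraries, or at most 8.88 CPM. Each treated library was the higher of its pair, but treated library 4 lay below untreated library 6, and the paired log2 fold change was 3.84 ± 0.97 (adjusted p = 0.0537). The call was made with DESeq2 and without number 6. The promoter window of Col28a1, from 250 bases before to 50 after the start (RefSeq, GRCm38.p6, chr6:8192568-8192867, minus strand), is shown because it was the only one of the 34 collagen genes with a window to hold TTCNNNGAA, the letters bound by STAT dimers (first listed window of each gene, both strands; its letters contain none of the other motifs searched). The 8 genes without a window were not searched: Col1a1, Col2a1, Col4a3, Col5a2, Col9a3, Col12a1, Col14a1 and Col22a1. Among them are genes that fell with IFNγ (Col1a1, Col2a1 and Col12a1) and the others higher in each pair (Col4a3 and Col9a3). The motif is in 8.3% of all 32851 windows, and a match is a description, not a site. Capitals mark it:
Col28a1: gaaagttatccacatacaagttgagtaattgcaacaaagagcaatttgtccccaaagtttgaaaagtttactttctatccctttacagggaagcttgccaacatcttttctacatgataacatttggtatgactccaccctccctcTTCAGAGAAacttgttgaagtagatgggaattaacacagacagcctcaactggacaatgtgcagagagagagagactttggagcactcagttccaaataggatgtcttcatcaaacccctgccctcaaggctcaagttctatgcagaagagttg

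TATAAA on the gene's strand was in the window of 5 of the 34 genes, Col3a1 among them, and in 8.32% of all windows. CCAAT on either strand was in 12 of 34 and in 37.4% of all, and GGGCGG on either strand in 21 of 34 and in 35.7% of all. The median GC content was 60.2% in the collagen windows and 52.7% in all windows. Col1a2, which was called in all 3 comparisons, had both CCAAT and GGGCGG, marked in capitals on either strand (chr6:4505368-4505667, plus strand):
Col1a2: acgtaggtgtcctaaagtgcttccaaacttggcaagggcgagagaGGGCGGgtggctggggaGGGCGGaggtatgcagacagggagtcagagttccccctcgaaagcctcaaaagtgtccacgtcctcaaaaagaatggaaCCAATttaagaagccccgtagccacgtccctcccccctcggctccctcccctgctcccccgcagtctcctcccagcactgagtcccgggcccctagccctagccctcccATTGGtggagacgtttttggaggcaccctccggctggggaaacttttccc

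Chains that share a molecule kept their ratio in some pairs and not in others. Levels of different genes were compared as counts per kb of exon. The exonic length listed for a gene can be far from that of 1 transcript. Col1a2 had 12145 bases of exon and 4116 of coding sequence, against 6563 and 4359 for Col1a1. Absolute ratios are thus not read as ratios of molecules. Each length is constant over libraries, so it does not enter differences between them. The ratio of Col4a1 over Col4a2 was 1.65, 1.62 and 1.32 in IFNγ-treated, 1.495, 1.69 and 1.63 in osteogenic and 1.43, 1.53 and 1.30 in untreated libraries. Over all 9 libraries the highest was 1.29 times the lowest, the narrowest of the 12 ratios computed. These genes lie head to head on chromosome 8 and are next to each other in the annotation, as are Col6a1 and Col6a2 on chromosome 10, Col3a1 and Col5a2 on chromosome 1, and Col4a5 and Col4a6 on the X. Their promoter windows overlap by 78 bases, shown in capitals, each on its own gene's strand (Col4a1, chr8:11312777-11313076, minus; Col4a2, chr8:11312555-11312854, plus). Reads from the shared bases cannot be told apart without strand, and whether the counting used it is not known here:
Col4a1: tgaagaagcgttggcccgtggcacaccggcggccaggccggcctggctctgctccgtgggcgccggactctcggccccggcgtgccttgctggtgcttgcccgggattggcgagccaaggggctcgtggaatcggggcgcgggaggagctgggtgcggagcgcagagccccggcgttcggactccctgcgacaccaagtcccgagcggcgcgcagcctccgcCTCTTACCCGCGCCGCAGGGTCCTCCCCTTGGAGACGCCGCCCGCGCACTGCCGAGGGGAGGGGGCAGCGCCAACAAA
Col4a2: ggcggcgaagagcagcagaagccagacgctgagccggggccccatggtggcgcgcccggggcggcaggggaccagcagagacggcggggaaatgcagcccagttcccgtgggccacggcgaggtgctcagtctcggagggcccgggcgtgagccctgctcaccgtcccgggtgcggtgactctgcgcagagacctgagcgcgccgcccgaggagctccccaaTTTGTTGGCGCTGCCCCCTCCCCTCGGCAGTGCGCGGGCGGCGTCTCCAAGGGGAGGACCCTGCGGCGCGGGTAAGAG

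Other partners varied more. Col1a1 over Col1a2 was 0.658, 1.78 and 0.865 in IFNγ-treated, 2.92, 2.18 and 2.84 in osteogenic and 1.68, 2.66 and 0.956 in untreated libraries. In each pair the treated library had the lower ratio, and 2 of the 3 osteogenic libraries had a higher ratio than any adipogenic one. Col5a1 over Col5a2 was 0.455, 0.536 and 0.656 in IFNγ-treated, 0.756, 0.699 and 1.10 in osteogenic and 0.823, 0.607 and 0.818 in untreated libraries, again lower in the treated library of each pair. Col6a1 over Col6a2 kept within 2.73 to 5.83. Col6a3 over Col6a1 was 0.378, 0.156 and 0.131 in IFNγ-treated, 0.465, 0.258 and 0.687 in osteogenic and 0.137, 0.157 and 0.0862 in untreated libraries. Col8a2 over Col8a1 spanned the widest range, from 0.00224 in IFNγ-treated library 6 to 1.05 in osteogenic library 4. The neighbours Col4a5 and Col4a6 had ratios from 4.56 in untreated library 4 to 99.3 in osteogenic library 6. With 3 libraries a group, an exact permutation test of such a ratio cannot go below p = 0.1, so none was run.

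**Figure D5:**
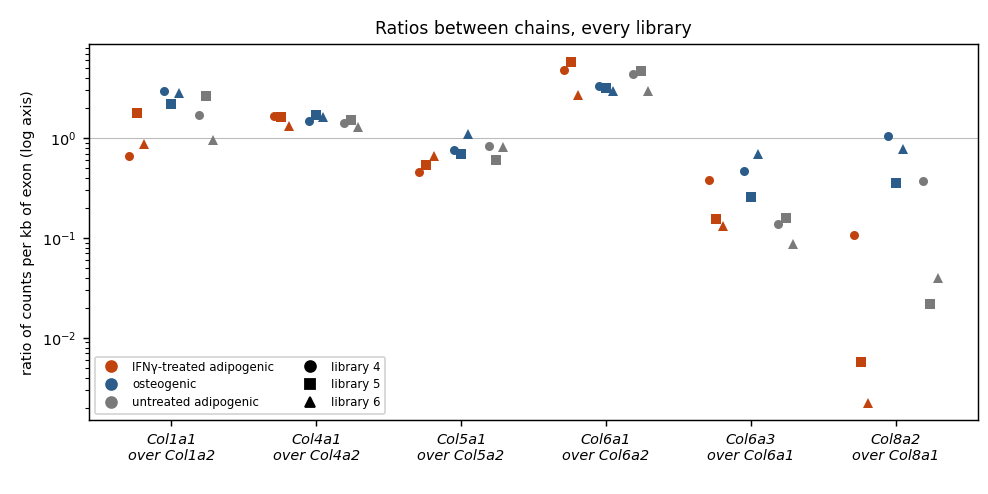
Each point is 1 library's ratio of counts per kb of exon between 2 collagen chains, on a log axis, with colour for the group and shape for the library number. Col4a1 over Col4a2 keeps within 1.30 to 1.69, while Col8a2 over Col8a1 runs from 0.00224 to 1.05.

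At the low end, 17 collagen genes had a mean under 10 CPM in each group, among them all transmembrane chains. Col17a1 of hemidesmosomes was at 1.09 to 2.47 CPM, Col23a1 at 0.177 to 2.93 CPM and Col25a1 at 0 to 1.10 CPM, none of which passed a test, and Col13a1 had no counts. The 6 genes not tested had at most 80 counts over all 9 libraries.

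Genes that fold, cut and cross-link collagen moved in part with the chains. Of 33 tested genes for procollagen processing and cross-linking, 1 rose and 6 fell with IFNγ (6.53% of all genes rose and 4.27% fell), with a median log2 fold change of -0.35. Sparc, a collagen-binding protein of bone matrix, had 1106, 1263 and 2873 CPM in IFNγ-treated and 3040, 2666 and 4781 CPM in untreated libraries (-1.09 ± 0.18, adjusted p = 0.0143). Fkbp10, a chaperone of procollagen, had 138, 164 and 221 CPM in IFNγ-treated and 299, 291 and 321 CPM in untreated libraries (-0.83 ± 0.14, 0.0162), and Leprel2, of the prolyl hydroxylase family, changed by -0.48 ± 0.08 (0.0155). P4ha1, a subunit of the hydroxylase that stabilises the helix, rose instead by 0.56 ± 0.09 (0.0138). In osteogenic against untreated cells 5 rose and 1 fell (1.98% and 3.19% of all genes), with a median of 0.45. Fkbp10 had 765, 710 and 878 CPM in osteogenic libraries (1.37 ± 0.19, adjusted p = 0.00933), Sec23a, of the coat that carries cargo out of the endoplasmic reticulum, rose by 1.13 ± 0.18 (0.0141), P4ha1 by 0.95 ± 0.18 (0.0246), and the cross-linking enzyme Loxl4 fell, by -1.16 ± 0.23 (0.0312). In IFNγ-treated against osteogenic cells 1 rose and 12 fell (9.2% and 7.52% of all genes), with Fkbp10 at -2.17 ± 0.19 (3.2e-04), Sec23a at -1.54 ± 0.18 (0.00121), the transcription factor Creb3l1 at -1.63 ± 0.21 (0.00215) and the foldase Fkbp14 at -1.31 ± 0.18 (0.00279).

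Of 10 tested collagen receptors, 0 rose and 2 fell with IFNγ, against 6.53% and 4.27% of all genes. The integrin chain Itga11 had 132, 119 and 21.8 CPM in IFNγ-treated and 291, 280 and 40.7 CPM in untreated libraries (-1.10 ± 0.11, adjusted p = 0.00305), and the discoidin receptor Ddr1 changed by -0.59 ± 0.13 (0.0367). In osteogenic against untreated cells, the integrin chain Itga1 alone passed (1.98% of all genes rose), at 1.8 ± 0.36 (adjusted p = 0.0331), with 19.9, 30.9 and 49.1 CPM in osteogenic and 12.8, 7.68 and 8.18 CPM in untreated libraries. In IFNγ-treated against osteogenic cells 1 rose, Itga2, and 3 fell (9.2% and 7.52% of all genes): Itga1 at -2.98 ± 0.38 (adjusted p = 0.00209), Itga10 at -3.41 ± 0.73 (0.0172) and Itga11 at -2.97 ± 0.83 (0.0436).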

How the data were processed

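Per the labels' protocols, a strand-keeping kit was used on poly(A) RNA, giving 75 bp single reads, with all libraries pooled over the lanes used. CASAVA 1.8.0 and bedtools 2.11 were used with build mm9, per the submitters' processing notes. No source used here gives the aligner or the strand setting of the counting, so reads of overlapping genes may be shared. The deposited values are raw counts per gene, with the exonic length of each gene.

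Counts were scaled by TMM factors, which also enter the CPM (shares of counts use plain totals), after edgeR's low-count filter and tested with edgeR 4.0.16 (R 4.3.3), two-sided, with robust quasi-likelihood fits over all 9 libraries and Benjamini-Hochberg adjustment over 15098 genes. The collagen genes and all lists and classes were chosen with earlier results of these data known. Fold changes carry the SE given by the size of the log2 fold change over the square root of F. The IFNγ comparison has the library number of the adipogenic cells as a block; the other comparisons have groups only. Deviations from the group means correlated at 0.795, 0.788 and 0.799 between treated and untreated libraries of one number, and at -0.472 to -0.282 between different numbers, whereas osteogenic libraries gave -0.0748 to 0.0341 with adipogenic ones of their number. Genes were named by value per library if they reached a mean of 10 CPM in a group, and pathway genes by up to 4 calls per list with the smallest adjusted p; Col28a1, Itga2 and the low collagen genes were named after their values were seen. Alternatives were other scalings, no filter, DESeq2 1.42.0, limma-voom (limma 3.58.1), fewer libraries and other blocks. Only the main edgeR fit of each comparison was run on simulated counts. These had the same dispersion for all genes, which need not match the spread here, so no conclusion on the calls is drawn from that run. Coding sequences are from GENCODE M21 and promoter windows from RefSeq (GRCm38.p6); no coordinates were taken from the deposited files. 34 of the 42 genes had a promoter window. The marker and pathway lists also held newer or other symbols that matched no row of the table, which were left out.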

Additional observations from a re-analysis of the deposited data

How the results depend on the processing

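Number 4, 5 or 6 left out, with or without pairing, gave 0 to 2 collagen calls for IFNγ-treated against untreated cells, against 7. Over all genes, 1.2% to 2.41% rose and 0.0582% to 0.749% fell in these fits. Leave-outs gave 1 to 4 calls for osteogenic against untreated cells (6 in the full fit) and 7 to 9 for IFNγ-treated against osteogenic cells (11). In the former, 0.347% to 0.854% of all genes rose and 0.676% to 2.22% fell. In the latter, 4.81% to 7.65% rose and 3.5% to 5.44% fell. These fits hold fewer samples, and a group with a library left out is assumed to vary like the others. Without the replicate block, IFNγ gave 1 call, and with a replicate block of numbers over all 9 libraries 2. Of all genes, 2.01% and 2.56% rose and 0.245% and 0.576% fell with these settings. DESeq2 gave 17, 11 and 17 calls in the 3 comparisons. With it 9.35%, 6.29% and 13.8% of all genes rose, and 8.54%, 8.54% and 11.7% fell. Only the 6 libraries compared gave 11 and 2 for the first 2 comparisons (8.61% and 1.35% of all genes rose, 8.02% and 2.24% fell). No filter gave 7 for the third (5.56% of all genes rose and 4.11% fell). The cause was not tested. With an osteogenic library left out of the paired fit, chosen after seeing the data, IFNγ gave 7, 7 and 10. There 6.18%, 6.74% and 7.28% of all genes rose, and 3.89%, 4.21% and 5.12% fell. Library totals moved the median of all genes to -0.124 for osteogenic over untreated and 0.123 for IFNγ-treated over osteogenic.

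Of 1300 values for 75 gene comparisons, 1057 kept sign and side of the threshold, 138 lost a call, 52 gained one and 53 turned sign, 1 of these in a called result: Col2a1 with IFNγ, unpaired, without untreated library 5. For IFNγ-treated over untreated, Col11a2 (0.017) went to -0.029 with upper-quartile scaling, -0.077 with limma-voom, -0.007 with 6 libraries, -0.127 without the block and -0.055 with numbers blocked over all 9. Col18a1 (0.007) went to -0.004 with RLE factors and with DESeq2, -0.039 with upper quartiles, -0.008 with totals, -0.007 with 6 libraries, -0.017 without the block and -0.036 with numbers blocked. For osteogenic over untreated, Col15a1 went to 0.174 and Col6a2 to 0.081 with numbers blocked, Col6a2 to 0.002 with limma-voom, and Col16a1 to -0.004 with totals. For IFNγ-treated over osteogenic, Col15a1 went to -1.565 with limma-voom and -1.644 with numbers blocked, and Col5a3 to -0.108 with numbers blocked.

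Leave-outs of IFNγ-treated over untreated, paired or not, ran from -1.964 to 0.516 for Col10a1, -0.484 to 0.308 for Col11a2, -4.607 to 1.705 for Col15a1, -0.158 to 0.213 for Col18a1, -4.173 to 0.12 for Col2a1, -1.866 to 0.369 for Col4a6, -2.335 to 0.204 for Col6a2 and -0.522 to 0.192 for Col6a3. Those of osteogenic over untreated ran from -2.338 to 0.863 for Col15a1, -0.12 to 0.551 for Col16a1, -0.494 to 0.208 for Col4a1, -0.669 to 0.098 for Col4a2, -0.755 to 0.085 for Col6a1 and -0.656 to 0.616 for Col6a2. Those of IFNγ-treated over osteogenic ran from -2.779 to 1.418 for Col15a1, -0.823 to 0.103 for Col4a1, -0.856 to 0.223 for Col4a2, -0.064 to 1.709 for Col5a3 and -2.062 to 0.019 for Col6a2.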
